A study of Homo sapiens with 4 samples.

Results

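The genes examined are 38 histone acetylation enzymes and bromodomain genes among 20033 protein-coding genes of the GENCODE release 44 annotation. They were chosen by name and fall into 11 zinc-dependent deacetylases (HDAC1 to HDAC11), 7 sirtuins (SIRT1 to SIRT7), 10 acetyltransferases (EP300, CREBBP, KAT2A, KAT2B, KAT5, KAT6A, KAT6B, KAT7, KAT8 and HAT1) and 10 bromodomain genes outside the BET family (BRD1, BRD7, BRD8, BRD9, BRPF1, BRPF3, SMARCA2, SMARCA4, PBRM1 and TAF1). Chromatin accessibility was measured by ATAC-seq, in which the Tn5 transposase inserts adapters into open DNA, in pancreatic progenitors derived from MEL1 cells. MEL1 is an established human embryonic stem cell line, which the methods give as MEL1 INS GFP/W, with GFP in one allele of the insulin gene. Both groups grew in EF6 medium, a B27-supplemented medium with EGF, bFGF and a TGFβ inhibitor. For 7 days cells received DMSO as the solvent control (2 libraries) or 1 μM I-BET151 (2 libraries), an inhibitor of acetyl-lysine readers of the BET family. All libraries came from the same line, and whether libraries of a group came from separate cultures is not given in the sources used here, so p-values measure only the spread between these libraries.

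Acetyltransferases add acetyl groups to histone lysines, deacetylases and sirtuins remove them, and bromodomains bind the acetylated lysine. Some zinc-dependent deacetylases, among them HDAC2 and HDAC3, act inside corepressor complexes, and sirtuins need the cofactor NAD. I-BET151 blocks the bromodomains of the BET family. Many of the genes described here encode enzymes that write or erase the mark that BET proteins read. Others encode further proteins that read this mark, and some of the enzymes act mainly on other substrates.

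Peaks of the 4 lists were merged where they shared at least 1 bp. Of 164301 merged regions on hg38, 310 lay within 10 kb of the body of a member gene, against 102534 within 10 kb of any protein-coding gene. A region is called gained when both I-BET151 lists and neither DMSO list contain it, lost in the opposite case, and shared when all 4 lists contain it. The lists were called separately by MACS2 and differ in depth. They held between 38295 and 111324 peaks, and their background corresponds to 38.7 and 36.6 M reads for DMSO replicates 1 and 2 but 12.5 and 16 M reads for I-BET151 replicates 1 and 2. The smallest pileup (reads stacked at the summit) of a called peak was 10 and 11 reads in the DMSO lists and 5 and 6 reads in the I-BET151 lists, so a region missing from a list is not shown to be closed. Promoters of 7 of 9 pancreatic progenitor markers were called in all 4 lists, among them SOX9, NKX6-1, FOXA2 and GATA6. The same held for 72.1% of the protein-coding genes with a called promoter, so this count says little about cell identity. PDX1 was called in both I-BET151 lists only, and ONECUT1 in every list except DMSO replicate 2. No promoter of 5 endocrine markers was called in all 4 lists, and LIN28A was the only one of 4 pluripotency markers that was, while APOA1 of the liver list and COL1A1 and TWIST1 of the mesenchyme list were also present in all 4.

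The sequences below carry the results that follow. Each is the plus strand of hg38, read 5′ to 3′ within the 200 bases around a peak summit and cut to the part outside annotated exons of protein-coding genes. Capitals mark a match on either strand to one of 9 motifs. These are the CTCF consensus, CCGGAAGT for ETS factors, GCATGCGC for the factor NRF1 and TGACGTCA for CREB. The word GGGCGG stood for factors of the SP and KLF families (SP/KLF below) and the word CCAAT for the trimeric factor NFY. Those of AP-1, of the FOXA factors and of the GATA factors were TGANTCA for the first, TGTTTAC for the second and AGATAA for the last of them. The first is the HDAC3 promoter, which moved up in rank, at chr5:141636850-141636949.
HDAC3 promoter: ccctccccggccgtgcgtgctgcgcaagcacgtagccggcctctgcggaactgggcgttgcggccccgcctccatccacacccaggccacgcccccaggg
The region downstream of KAT2A that also moved up lies at chr17:42107882-42107981 and holds 3 SP/KLF matches.
KAT2A downstream region: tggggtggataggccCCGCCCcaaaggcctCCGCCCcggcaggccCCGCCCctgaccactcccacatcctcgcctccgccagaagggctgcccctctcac
The promoters of BRD7 (chr16:50368989-50369127), SIRT7 (chr17:81918177-81918269), KAT2A (chr17:42121368-42121443) and BRD1 (chr22:49827874-49827994) hold regions over the start that only the I-BET151 lists contain, although at BRD7 both DMSO lists have another region within 1 kb of the start. The SIRT7 window holds overlapping NRF1 matches on the 2 strands.
BRD7 promoter: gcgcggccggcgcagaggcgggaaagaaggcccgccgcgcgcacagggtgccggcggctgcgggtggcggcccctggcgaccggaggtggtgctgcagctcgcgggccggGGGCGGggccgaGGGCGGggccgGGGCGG
SIRT7 promoter: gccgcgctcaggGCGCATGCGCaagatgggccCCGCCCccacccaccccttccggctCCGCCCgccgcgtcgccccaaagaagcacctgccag
KAT2A promoter: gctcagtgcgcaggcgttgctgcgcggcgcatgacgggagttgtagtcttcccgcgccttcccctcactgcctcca
BRD1 promoter: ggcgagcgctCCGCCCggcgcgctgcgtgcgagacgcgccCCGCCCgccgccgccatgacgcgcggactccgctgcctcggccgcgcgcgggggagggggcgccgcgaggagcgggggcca
Of the distal gained regions, the first below lies before the canonical start of HDAC9 (chr7:18489670-18489869) and the next downstream of HDAC7 (chr12:47779463-47779662), with a CTCF match.
HDAC9 gained region: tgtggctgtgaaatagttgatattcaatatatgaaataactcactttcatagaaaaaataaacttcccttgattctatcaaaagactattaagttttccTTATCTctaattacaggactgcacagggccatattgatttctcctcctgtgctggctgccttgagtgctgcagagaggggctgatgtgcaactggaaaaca
HDAC7 gained region: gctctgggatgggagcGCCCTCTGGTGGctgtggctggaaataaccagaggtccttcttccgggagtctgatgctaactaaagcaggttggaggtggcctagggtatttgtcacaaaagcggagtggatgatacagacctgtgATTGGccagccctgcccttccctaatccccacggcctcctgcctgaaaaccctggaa
The lost regions beside BRD9 (chr5:846848-847047) and HDAC10 (chr22:50234384-50234583) are shown because 28.0% and 57.1% of the 12-base words in them occur more than once.
BRD9 lost region: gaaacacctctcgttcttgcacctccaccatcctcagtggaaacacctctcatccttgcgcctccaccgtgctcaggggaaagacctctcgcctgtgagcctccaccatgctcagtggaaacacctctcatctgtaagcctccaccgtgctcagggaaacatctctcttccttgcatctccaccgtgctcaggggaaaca
HDAC10 lost region: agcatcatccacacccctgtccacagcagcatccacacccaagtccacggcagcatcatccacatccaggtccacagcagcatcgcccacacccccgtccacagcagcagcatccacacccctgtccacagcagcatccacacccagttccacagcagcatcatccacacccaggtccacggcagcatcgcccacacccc

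The number of accessible regions at the member genes did not separate the conditions. DMSO replicates 1 and 2 called 160 and 91 of the 310 regions, and I-BET151 replicates 1 and 2 called 156 and 210. The DMSO mean was 125.5 ± 48.8 regions and the I-BET151 mean 183 ± 38.2 (SD over 2 libraries each). Their ratio was 1.46, against 1.58 over the regions of all protein-coding genes. The groups overlapped, because DMSO replicate 1 called more regions than I-BET151 replicate 1, and an exact permutation test (two-sided) returned p = 0.67, where 2 against 2 libraries cannot go under 0.33. The ratio was 0.975 within the libraries numbered 1 and 2.31 within those numbered 2. When every list was cut to its 38295 strongest peaks by −log10 p, the ratio was 0.977.

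At the member genes 47 regions were gained and 9 were lost, in 23 and 6 genes. The gained regions were 15.2% of the 310, beside 16.3% of the regions of all protein-coding genes, and the lost regions were 2.90% beside 2.29%. Another 67 regions were shared and 187 had some other combination of calls, of which 66 were called only in I-BET151 replicate 2 and 59 only in DMSO replicate 1. Zinc-dependent deacetylases had 27 gained and 4 lost of 147 regions, sirtuins 8 gained and 0 lost of 31, acetyltransferases 7 gained and 2 lost of 68, and bromodomain genes 5 gained and 3 lost of 64. HDAC9 alone held 17 of the gained regions, and without it the share gained was 12.1% of 248 regions and the ratio of called regions was 1.23. With equal numbers of peaks in every list 9 regions were gained, and with a −log10 p of at least 10 there were 29 gained and 1 lost. Leaving out a library gave 113 gained without I-BET151 replicate 1 and 74 without I-BET151 replicate 2. Lost regions numbered 68 without DMSO replicate 2 and 14 without DMSO replicate 1 or I-BET151 replicate 2. By construction these numbers cannot fall below the main ones, because fewer lists then define a gain or a loss.

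**Figure D1:**
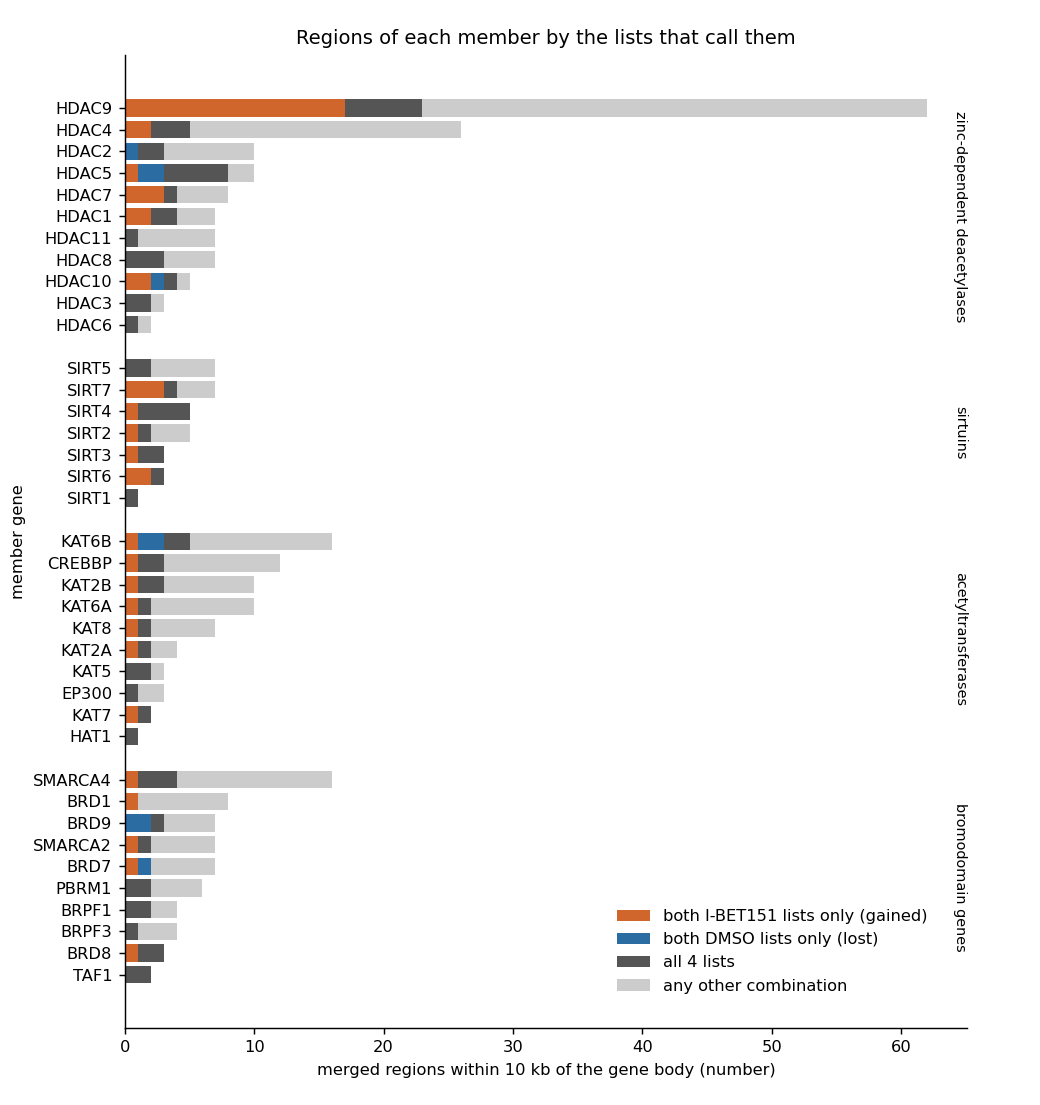
Merged regions within 10 kb of each of the 38 member genes (horizontal axis, number of regions), stacked by the lists that call them and grouped by class. HDAC9 has 62 regions, 17 of them gained, and no other member has more than 3 gained regions.

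HDAC9 encodes a class IIa deacetylase that binds MEF2 transcription factors, and its gene spans 915 kb of chromosome 7 (18086949 to 19002416). DMSO replicates 1 and 2 called 16 and 9 of its 62 regions, and I-BET151 replicates 1 and 2 called 36 and 51. Every I-BET151 library thus called more regions than either DMSO library, which was not the case for the members together. It was the case for several other members with fewer regions, among them HDAC1, HDAC7, KAT6A, SIRT6 and SIRT7. The 17 gained regions made up 27.4% of the 62 and 0 were lost, beside 16.3% and 2.29% over all protein-coding genes. HDAC9 is singled out here for the number of its gained regions and not for their share. That share was higher at some members with fewer regions, such as SIRT7 (3 of 7) and HDAC7 (3 of 8). Of the gained regions 6 lay before the start of the canonical transcript and 11 after it, 10 of these in introns and 1 over a coding exon (exon 12). They spanned from 409 kb before to 378 kb after that start, with a fold over local background of 3.22 to 13.8 and a summit pileup of 8 to 47 reads. The highest single fold was in intron 12 at chr7:18721500-18722215, with a fold of 7.14 in I-BET151 replicate 1 and 13.8 in replicate 2. The median GC content of their windows was 41.5%, against 46.5% in all gained windows near protein-coding genes. The GATA word stood in 5 of the 17 windows (29.4% against 15.7%), the NFY word in 2 (11.8% against 22.8%), and the SP/KLF and FOXA words in 0 (against 12.4% and 5.06%). The regions of HDAC9 share a locus and are not independent of each other. With equal numbers of peaks 2 HDAC9 regions were gained, and with a −log10 p of at least 10 there were 8. Without I-BET151 replicate 1, where fewer lists define a gain, the number was 36.

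**Figure D2:**
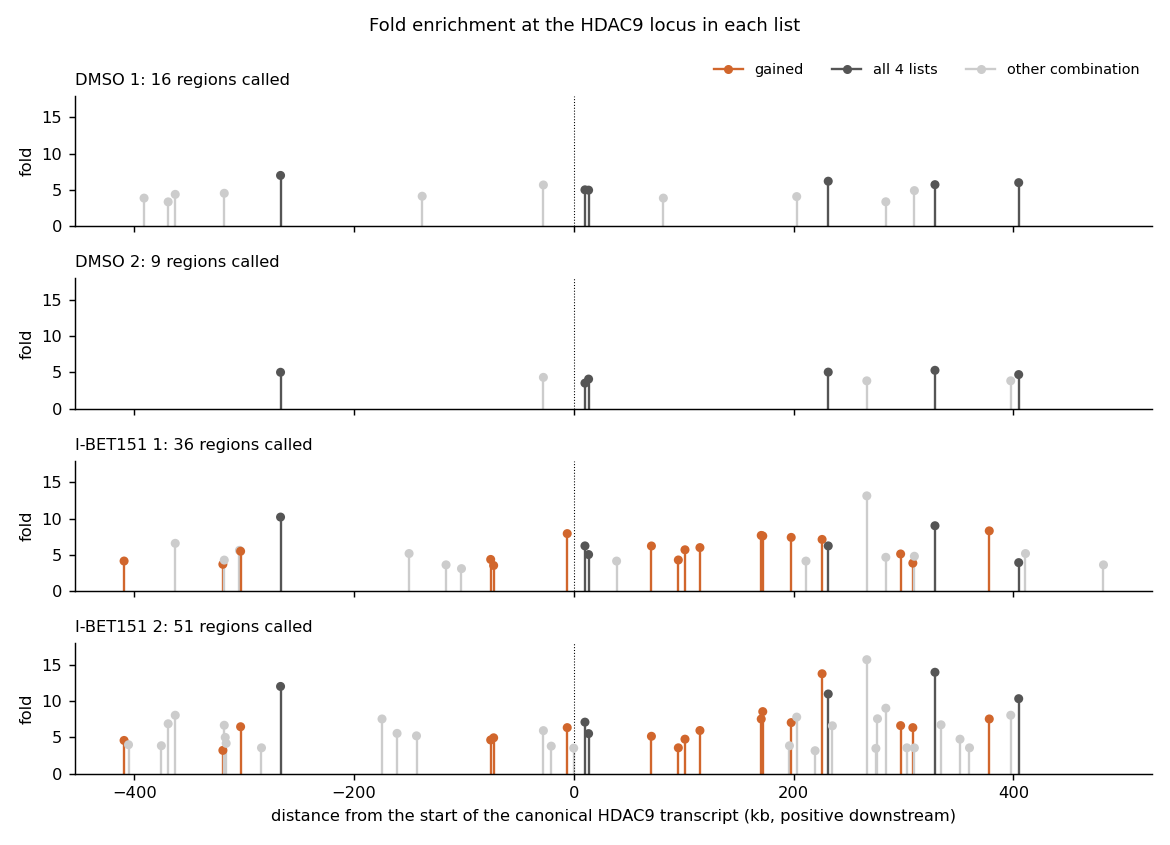
Fold enrichment (vertical axis, ratio to local background) of every region called at HDAC9, by distance of the summit from the canonical start in kb, with 1 panel per library. The 6 shared regions stand in every panel, and the 17 gained regions appear on both sides of the start in the I-BET151 panels only.

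The start of HDAC9 itself was weak. The region over the canonical start was called in I-BET151 replicate 2 alone, with a fold of 3.54 on 11 reads, so HDAC9 was the member with the lowest promoter percentile. The annotation lists 31 distinct starts for the gene. A region at the starts about 409 kb upstream (chr7:18086130-18087333) was gained, with a fold of 4.17 in I-BET151 replicate 1 and 4.59 in replicate 2. The region at starts about 13.5 kb downstream (chr7:18508531-18509460) was shared, with a fold of 4.98 and 4.09 in DMSO replicates 1 and 2 and of 5.06 and 5.53 in I-BET151 replicates 1 and 2. A start far into the gene, in intron 16, lay at another gained region (chr7:18792707-18793678), with 5.14 and 6.63. The rank shift of the shared region, −1.17, did not pass the limma test (adjusted p = 0.0808).

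Gained regions were ranked by the lower of their 2 folds. The first of them lay 6.5 kb from the start of SIRT7, a nucleolar deacetylase of histone H3, at chr17:81911447-81911894. Its fold was 9.74 in I-BET151 replicate 1 and 8.38 in replicate 2, on 29 and 56 reads. Its summit lies 250 bp from the start of PCYT2, an enzyme of phosphatidylethanolamine synthesis. HDAC7, another class IIa deacetylase, had 2 gained regions downstream of it and 1 in intron 1. The one at chr12:47779183-47779734, whose window holds the CTCF match, had a fold of 6.86 and 9.13 in I-BET151 replicates 1 and 2, and the one at chr12:47773013-47773900, at the start of SLC48A1, had 6.25 and 7.04. KAT6A, the catalytic subunit of a histone H3 acetyltransferase complex, had 1 gained region in intron 2, with a fold of 6.97 and 9.76. BRD8, a subunit of the TIP60 acetyltransferase complex, had 1 in the neighbouring gene NME5, with 6.76 and 6.36. HDAC9 held 6 of the first 10 regions in this order, and those other than the one at chr7:18721500-18722215 had folds between 6.36 and 8.56.

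Most gained regions of the members lay more than 1 kb from a start, and several near one belonged to another gene. Of the 47 gained regions 13 lay within 1 kb of a protein-coding start, and 8 of these were at the start of a gene outside the member list, namely MARCKSL1, MAPK12, SLC48A1, BCKDK, RINL, RIC8A, PCYT2 and MAFG. Of the 67 shared regions 46 lay within 1 kb of a start. These shares were not computed for all regions near protein-coding genes, so they are not shown to be particular to the members. Gained windows of the members had a median GC content of 55.5% and shared windows 63.5%, beside 46.5% and 60.0% for all gained and shared regions near protein-coding genes. The SP/KLF word was in 13 of 47 gained and 34 of 67 shared windows (27.7% and 50.7%), beside 12.4% and 39.8% for all such regions. The CTCF consensus was in 2 gained and 0 shared windows of the members, beside 4.56% and 2.03% of all such regions, and no match says only that these letters are not in the window.

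The 9 lost regions had folds of 2.77 to 6.73, in lists whose median fold was 3.88 and 4.08 against 5.56 and 6.03 in the I-BET151 lists. They stood at BRD9, KAT6B and HDAC5 with 2 each and at HDAC2, HDAC10 and BRD7 with 1 each. BRD9 encodes a bromodomain subunit of the noncanonical SWI/SNF complex, and both of its lost regions lay downstream within ZDHHC11. The first (chr5:840722-842047) had a fold of 6.73 and 5.77 in DMSO replicates 1 and 2, and the other (chr5:846533-847093) had 3.79 and 5.01. Those of KAT6B, a paralog of KAT6A, lay in intron 3 with a fold of 3.62 and 3.81, and in intron 13 with 3.88 and 3.85. HDAC5, which shuttles between nucleus and cytoplasm, lost a region 8.9 kb upstream with 4.26 and 3.76, and one in intron 14 with 3.29 and 3.22. Next to the latter (chr17:44086105-44086649) stood a gained region in intron 13 (chr17:44086976-44087320). Its fold was 7.34 and 5.42 in I-BET151 replicates 1 and 2, so this stretch was not without a call nearby. The lost region at HDAC2, a catalytic subunit of the NuRD and SIN3 complexes, had 3.57 and 3.47 in DMSO replicates 1 and 2. That at HDAC10, a polyamine deacetylase, had 3.41 and 4.45. In 3 of the 9 lost windows at least 20% of the 12-base words occurred more than once, against 0 of 47 gained and 0 of 67 shared windows and 3.03% of all lost windows near protein-coding genes. How reads were placed in such repeats is not given in the sources used here, and its part in the calls was not tested.

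**Figure D3:**
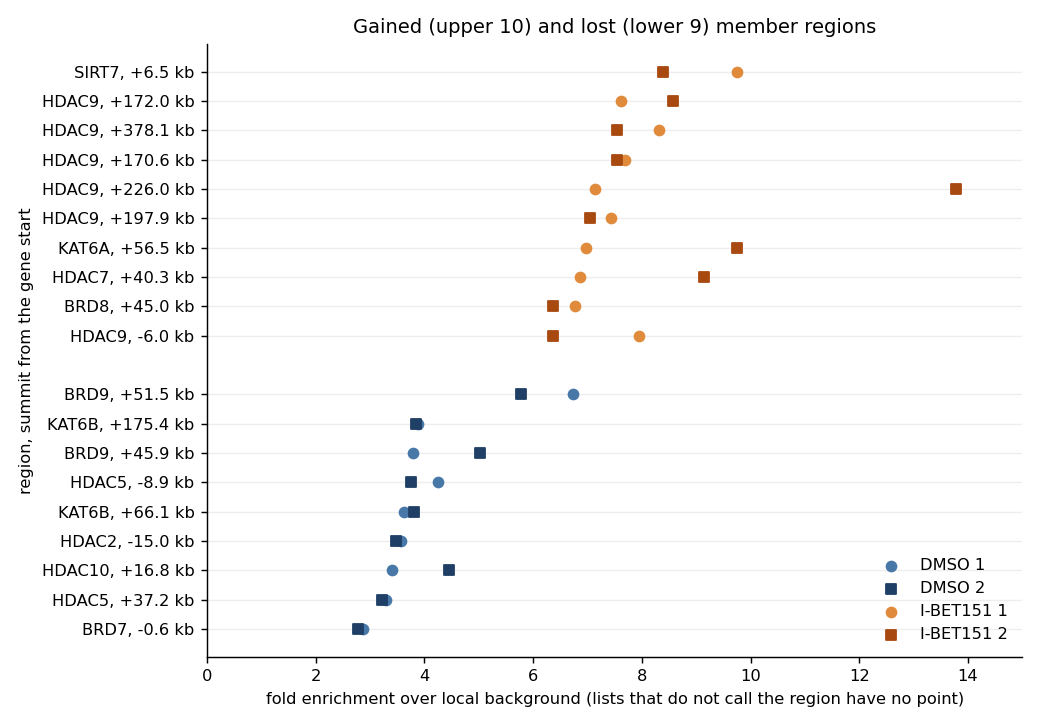
Fold enrichment (horizontal axis, ratio to local background) of the 10 gained member regions with the highest lower fold and of all 9 lost ones, labelled by gene and distance of the summit from its start, with 1 point per library that calls the region. Gained regions reach 13.8 and lost regions reach 6.73.

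At the promoters, taken as the region overlapping 1 kb on either side of the canonical start, most member genes had a called region in both conditions. All 38 had a called region there in at least 1 list, as did 14777 of the 20033 protein-coding genes. In 32 of them (84.2%) it was called in all 4 lists, beside 72.1% of the 14777 protein-coding genes with a promoter region. The DMSO lists called 32 member promoters each, and I-BET151 replicates 1 and 2 called 37 and 38. Counts per list were not made for all genes, so this rise is not shown to be particular to the members. Of all genes with a promoter region, 10.2% had it in both I-BET151 lists and neither DMSO list. Promoters were compared by percentile, the position of their fold within all peaks of the same list, with 0 where the promoter was not called. The median over the members was 86.3 and 81.9 in DMSO replicates 1 and 2 and 88.7 and 90.0 in I-BET151 replicates 1 and 2. The percentile in both I-BET151 lists lay above both DMSO lists for 22 members, beside 45.1% of the genes with a promoter region, and below them for 4, beside 11.9%. The median difference of I-BET151 minus DMSO was 4.49 percentile points over the members and 6.44 over all genes with a promoter region. With equal numbers of peaks in every list the median over the members was −0.774.

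The promoter regions of BRD7, KAT2A, SIRT7, BRD1 and HDAC10 were gained, 5 of 38 beside 10.2% of genes with a promoter region. BRD7 encodes a subunit of the PBAF chromatin remodelling complex, and its promoter (chr16:50368377-50369384) had a fold of 5.24 and 5.73 in I-BET151 replicates 1 and 2, on 12 and 23 reads. In both DMSO lists the call at BRD7 stood instead on a weaker neighbouring region with its summit 594 bp upstream of the start (chr16:50369414-50369780), with a fold of 2.86 and 2.77, so the peak position differed and the start was not without a call nearby. KAT2A, the acetyltransferase of the SAGA complex, had a fold of 5.46 and 5.31. SIRT7 had 6.58 and 4.26, and BRD1, the scaffold of a KAT7 complex, had 4.96 and 4.14. HDAC10 had the lowest gained promoter, with 3.28 and 4.62. The pileups of these 5 promoters ranged from 11 to 27 reads, in libraries of 12.5 and 16 M reads.

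HDAC3 showed the largest rise at a promoter called in all libraries. It is the catalytic subunit of a nuclear receptor corepressor complex, and its promoter region (chr5:141636379-141638173) also covers the start of RELL2. The fold was 3.78 and 3.74 in DMSO replicates 1 and 2 and 11.39 and 11.35 in I-BET151 replicates 1 and 2. A fold higher in both I-BET151 lists than in both DMSO lists was also found at 90.1% of all 25627 shared regions. The percentile was 42.4 ± 4.20 with DMSO and 91.5 ± 2.27 with I-BET151 (SD, n = 2 each). SIRT6, a deacetylase and mono-ADP-ribosyltransferase whose promoter region also covers the start of ANKRD24, had a percentile of 16.4 and 1.10 with DMSO and of 71.5 and 38.9 with I-BET151. The rank shift of SIRT6, 1.18 ± 0.47 (SE), did not pass the test (adjusted p = 0.139). CREBBP, the paralog of EP300, had 32.5 and 12.5 with DMSO and 38.6 and 77.3 with I-BET151.

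HDAC2 stood at the other end. Its promoter region (chr6:113969822-113971672) had a percentile of 80.9 and 81.8 in DMSO replicates 1 and 2 and of 63.6 and 69.5 in I-BET151 replicates 1 and 2, a difference of −14.8 points without overlap. Its fold was nevertheless higher with I-BET151, at 6.45 and 7.87 against 5.17 and 5.81, and its rank shift of −0.97 did not pass the test (adjusted p = 0.141). HDAC1, the closest paralog of HDAC2 and its partner in the same complexes, had a percentile between 91.4 and 97.3 in all 4 lists. KAT5, the catalytic subunit of the TIP60 complex, differed by −5.92 points, and its 4 values, from 76.3 to 89.4, overlapped between the groups. SIRT5, a mitochondrial desuccinylase, differed by −4.86 points and KAT6B by −2.50 points, both without overlap, and KAT6A by −3.21 points with overlap. The remaining members differed by −1.80 (HDAC4) to 31.0 points (SMARCA4, a catalytic ATPase of SWI/SNF). EP300 stood between 90.5 and 96.2, KAT7 between 91.2 and 96.8, KAT8 between 93.8 and 97.7, HAT1 between 95 and 99.3 and TAF1, a subunit of TFIID, between 96.5 and 99.3.

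The classes can be read beside all genes with a promoter region, whose median percentile went from 67.6 with DMSO to 80.1 with I-BET151 in lists of unequal length. Of these genes 45.1% had both I-BET151 percentiles above both DMSO percentiles, called above without overlap here. Acetyltransferase promoters had the highest median percentile with DMSO, 91.0, and stood at 88.8 with I-BET151, with a median difference of 0.301 points and 3 of 10 above without overlap. Bromodomain genes went from 79.3 to 87.8, with 9 of 10 above without overlap and PBRM1 as the exception. Zinc-dependent deacetylases went from 81.2 to 90.7, with 6 of 11 above, and sirtuins from 86.1 to 88.7, with 4 of 7 above. Among the promoters above are those of BRD7, BRD1, KAT2A, SIRT7 and HDAC10, which were not called with DMSO and so stand at percentile 0 there. All these values are descriptions of the lists, and the difference between classes was not tested. The RefSeq promoter table (GRCh38.p14, 250 bases before to 50 after the start) held 34 of the 38 members. Their median GC content was 68.2% and their median number of CpG was 30.5, against 63.0% and 22 for all 15345 protein-coding genes in it. HDAC9 had 47.3% and 5 CpG. The SP/KLF word was found in 22 of 34 members (64.7%) and in 59.2% of all genes, and the NFY word in 8 (23.5%) and in 36.6%.

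Over the 67 shared regions the deposited fold was higher in both I-BET151 lists than in both DMSO lists at 63, and at 0 it was lower in both. This was also the case at 90.1% of the 25627 regions shared in the whole series, so it is not particular to the members. The median log2 difference in fold was 0.86 over the members and 0.83 over all shared regions. Because such a shift belongs to the whole list, shared regions were compared by rank, with the fold of each list turned into normal scores and fitted with limma over all 25627 regions. A rank shift of 1 is then 1 SD of the list. The median rank shift over the members was 0.11 and over all regions −0.03.

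By this test 2 member regions were higher in rank with I-BET151 and 1 was lower (adjusted p under 0.05, Benjamini-Hochberg), beside 3.41% and 1.96% of all shared regions. The HDAC3 promoter had a rank shift of 1.45 ± 0.39 (SE, adjusted p = 0.0427). The region 13386 bp from the start of KAT2A (chr17:42107559-42108166), which lies beyond its 3′ end within DHX58, had a fold of 3.43 and 2.68 in DMSO replicates 1 and 2 and of 7.84 and 9.18 in I-BET151 replicates 1 and 2. Its rank shift was 1.63 ± 0.41 (SE, adjusted p = 0.0354).

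Neither call held under every alternative. In the limma fit the HDAC3 region had a rank shift of 1.24 without DMSO replicate 1 (adjusted p = 0.313), 1.51 without DMSO replicate 2 (0.186) and 1.24 without I-BET151 replicate 1 (0.0919), so it stayed higher while the call was lost. The KAT2A region had 1.99 without DMSO replicate 1 (0.0748) and 1.12 without DMSO replicate 2 (0.381). On centred log2 fold its difference was 0.58 (0.0737), and on centred log2 pileup it turned to −0.30 (0.444). With ranks by −log10 p, the limma fit called none of the 67 regions.

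**Figure D4:**
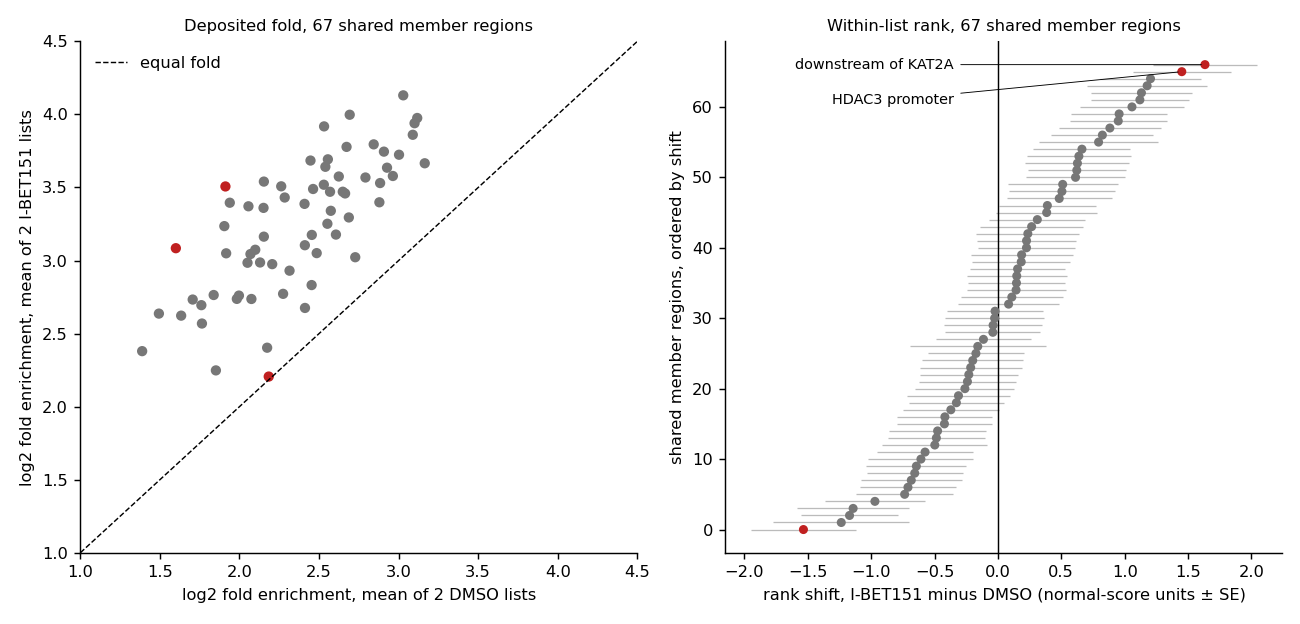
Left, mean log2 fold enrichment of the 67 shared member regions in the 2 I-BET151 lists against the 2 DMSO lists, with the dashed line at equal fold. Right, rank shift of the same regions ± SE from limma, in order of size; red points are the 3 regions past the threshold, of which those at KAT2A (1.63) and HDAC3 (1.45) are labelled.

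Other genes of the pathway were counted in the same way. Of 28 other bromodomain genes 24 had a promoter region and 19 had it in all 4 lists, and 2 promoters were gained. Over all protein-coding genes with a promoter region, 72.1% had it in all 4 lists and 10.2% had it gained. In the same limma fit 0 promoters were higher in rank and 2 were lower. Over all shared regions, promoters and others together, the shares were 3.41% and 1.96%. BRD2, itself a target of I-BET151, had a fold of 4.85 and 4.60 with DMSO and of 4.23 and 4.70 with I-BET151, and a rank shift of −1.79 (adjusted p = 0.0192). BRWD1 had a rank shift of −1.60 (adjusted p = 0.0278). Of 66 partner subunits 65 had a promoter region and 56 had it in all 4 lists, 3 were gained, 2 were higher and 2 were lower. GPS2, a subunit of the corepressor complex that contains HDAC3, was among those that were higher, with a rank shift of 1.74 (adjusted p = 0.0398). The percentile of the GPS2 promoter was 71.8 and 9.03 in DMSO replicates 1 and 2 and 92.4 and 92.6 in I-BET151 replicates 1 and 2. ARID2, a PBAF subunit, and ING1, a SIN3 subunit, were lower, with −1.51 (adjusted p = 0.0377) and −1.42 (adjusted p = 0.0472). Gained regions made up 14.2% of the 176 regions of the other bromodomain genes and 14.5% of the 519 regions of the partner subunits, beside 16.3% over all protein-coding genes.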

How the data were processed

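ATAC-seq peak lists of 2 DMSO and 2 I-BET151 libraries were used, and groups and replicate numbers were taken from the labels. Alignment to hg38 was done by the authors with Bowtie2 (v2.2.5). Duplicated and mitochondrial reads were discarded before MACS2 (v2.1.2) was run on each library. The deposited lists hold, for each peak, its fold enrichment as a ratio to local background, its p-value and q-value on a −log10 scale, and a display score that was not used. Between 7.54% and 10.9% of the peaks in each list had a p-value above the threshold that the methods state, and the shortest peak was 200, 233, 200 and 256 bp in DMSO 1, DMSO 2, I-BET151 1 and I-BET151 2, so the libraries were not called alike. Deeper libraries give calls and folds with less counting error.

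The pileup was solved from fold and p-value, which succeeded for 100% of peaks, and depth was taken from the background with a genome size of 2.7 Gb. Merging, percentiles and promoters (canonical start, GENCODE release 44) used pandas 2.3.3, scipy 1.17.1 and numpy 2.4.6 under Python 3.11.15. Rank shifts came from limma 3.58.1 in R 4.3.3 over 25627 regions. Tested on simulated data of that size, 97.5% of 200 changed regions were called with 4 other calls, and 0 when none was changed. The change built into those regions was larger than any rank shift at a member region. The share called therefore does not apply to shifts of the size seen here. The simulated noise had the same spread in every region and library, whereas the real libraries differed in depth. The 0 calls therefore do not give the rate of false calls in these data. The members and lists were chosen with earlier results of these data known. Named by rule were regions past the limma threshold, the 10 gained and 10 lost regions with the highest lower fold, the 5 largest promoter rises and falls, and promoters not called in all 4 lists; CREBBP, SMARCA4, PBRM1, HDAC1, the region at SLC48A1, the HDAC9 starts and the members with steady percentiles were added after their values were seen, as was the count of repeated words. Some regions and genes that met the rule are not reported here. Libraries with one number did not move together (correlation −0.14), so no pairing was assumed. Alternatives were the strongest peaks alone (−log10 p from 10 upward), lists of equal length, an overlap of 50%, windows of 0 and 50 kb, promoters of 200 bp, ranks by −log10 p, log2 fold and log2 depth-scaled pileup with and without centring, a replicate block, and each library left out.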

Additional observations from a re-analysis of the deposited data

How the results depend on the processing

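Of the main results, the number of member promoters called in all lists stayed at 32 when any library was left out. It could not fall there, because fewer lists then have to call the promoter. It was 28 with a −log10 p of at least 10, 29 with equal numbers of peaks per list and 31 with promoters of 200 bp. With a −log10 p of at least 10, 29 regions were gained, 1 was lost, 4 were up in rank, and the median promoter difference was 11.5. With equal numbers of peaks per list the ratio of called regions reversed to 0.977 and the median promoter difference to −0.774, and 9 regions were gained. A window of 0 kb gave 4 lost, 1 up and 0 down, and one of 50 kb gave 84 gained, 19 lost, 4 up and 3 down, by construction with other numbers of regions. Ranks by −log10 p gave 0 up and 0 down in the limma fit, with 9 at an unadjusted p under 0.05. The deposited log2 fold gave 58 up and 0 down, and depth-scaled log2 pileup 66 up and 0 down, on a shift of all shared regions of 0.83 and 1.90. Centred on each list's median, they gave 1 up and 2 down, and 1 up and 0 down. The KAT2A region reversed to −0.30 on centred pileup. Leaving out each library moved the gained regions from 51 to 113, the lost from 9 to 68, those up in rank from 0 to 4, those down from 0 to 2, the ratio from 1.14 to 2.01 and the median promoter difference from 3.47 to 6.68. Gained regions numbered 113 without I-BET151 replicate 1 and 74 without replicate 2, and lost ones 68 without DMSO replicate 2 and 14 without DMSO replicate 1 or I-BET151 replicate 2. A lone library is then assumed to vary like the other group. Leaving out HDAC9, chosen after seeing the data, gave 30 gained. Under the replicate block, limma called 2 up and 1 down, the ratio was 1.5 and the median promoter difference 4.49. Crossed pairing, another later addition, called 6 up and 4 down. With a library left out, gained and lost counts cannot fall, because fewer lists then define them. The cause of the other changes was not tested. Folds of gained regions rest on 6 to 56 reads at the summit, which limits their precision.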
